A study of Homo sapiens with 4 samples.

Results

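The cytosolic ribosomal protein genes were followed in OPM2 cells, a human multiple myeloma (plasma cell tumour) line, after inhibition of PI3 kinase and mTOR. The set held 57 of the 18377 genes named on the array, 35 of the large and 22 of the small ribosomal subunit. Members were the genes whose symbol begins with RPL or RPS followed by a number, with RPLP genes, RPSA and FAU, and without RPS6 kinases, pseudogenes and RPS4Y genes. Each had to own a probe set that the platform annotation gives to that gene alone, and the probe set with the highest mean over the arrays stood for the gene. RPLP0 and RPSA are among the cytosolic ribosomal proteins not analysed here. Cultures in 2 groups of 2 were compared, one given the solvent DMSO (control) and one given VS-5584 (SB2343), which blocks mTOR together with the class I PI3 kinases, at 123 nM. Both were grown in the same serum-supplemented medium and harvested at 24 h. The dose reads 125 nM in the series' design text, which puts it under the IC50 that OPM2 cells show at 48 h. Titles number the samples as biological replicates and give no more on their origin, so p-values measure the spread between these samples, which may be technical. All 8 plasma cell markers checked (SDC1, CD38, TNFRSF17, IRF4, PRDM1, XBP1, MZB1 and JCHAIN) lay above the filter on dim genes, against 4 of 14 markers of T cells, myeloid, stromal and erythroid cells.

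Each cytosolic ribosome is built from a small subunit, which reads the mRNA, and a large subunit, which joins amino acids. Most of their proteins are needed in equal numbers, and plasma cells, which secrete antibody, are rich in ribosomes. Most ribosomal protein mRNAs begin with a C followed by a run of pyrimidines, the 5' terminal oligopyrimidine (TOP) tract. Active mTOR complex 1 promotes the translation of TOP mRNAs, and when it is inhibited the protein LARP1 binds the capped tract, which holds these mRNAs off ribosomes and also protects them from decay. Arrays measure the amount of mRNA and not its translation.

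The tract was looked for at the start sites that RefSeq lists for the members (build GRCh38.p14). A tract was counted where the first transcribed base is C and at least 5 bases from it on are all C or T, read on the gene's own strand. Of the 48 members with a listed start site, 37 held it (77.1%), against 5.14% of all 27305 listed genes. With the first C allowed within 3 bases of the listed start, 43 members held it, against 16% of all genes. Shown are 8 of the members described below with the feature they share, and RPS4X as one whose listed start lacks it. Each window runs from 10 bases before the start to base 20 of the transcript, with the tract in capitals.
RPL22: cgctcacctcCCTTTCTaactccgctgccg
RPL29: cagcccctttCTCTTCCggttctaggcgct
RPL41: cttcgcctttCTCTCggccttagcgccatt
RPL26: gcgtgtagttCTCTTCCCTTTTgcggccat
RPL7A: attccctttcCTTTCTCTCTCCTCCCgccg
RPS9: gcttccgcgcCTCTTTCTCagtgaccgggt
RPS13: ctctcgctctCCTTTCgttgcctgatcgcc
RPS6: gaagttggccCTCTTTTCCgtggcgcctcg
RPS4X: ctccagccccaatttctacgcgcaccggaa
In the same order the windows lie at chr1:6199576-6199605 (minus strand), chr3:51995876-51995905 (minus strand), chr12:56116623-56116652 (plus strand), chr17:8383174-8383203 (minus strand), chr9:133348208-133348237 (plus strand), chr19:54200848-54200877 (plus strand), chr11:17077648-17077677 (minus strand), chr9:19380217-19380246 (minus strand) and chrX:72277229-72277258 (minus strand). Tracts of 5 bases in RPL41 and 16 bases in RPL7A were the extremes among these. The members with a tract at the listed start had a median log2 difference of 0.096 (30 of 37 higher) between treated and control cells. The 11 listed without one had 0.061 (9 higher). That difference was not tested.

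All values are log2 of the deposited intensity, and pairs of values are given as replicate 1 and then replicate 2. The gap between the quartiles of intensity was 1.95 log2 units at most and 1.74 at least, the least on VS-5584 replicate 2. That array also held the highest single intensity, 8013, against 6796 to 7614 on the others. All 57 members passed the filter, which left out the 40% of genes with the lowest mean over all arrays. In limma's fit of 11026 genes, the median gene differed by -0.064. That median was -0.0022 on VS-5584 replicate 1 and -0.14 on replicate 2. A fixed amount of RNA was labelled for each array, and in bulk RNA fewer cells of a type and less RNA per cell cannot be told apart.

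The median ribosomal protein gene had slightly more mRNA on both treated arrays than in control, and the median of all tested genes lay lower, but no member passed the test. Of the 57 members, 46 were higher on average (80.7%), against 37.3% of all tested genes. That count was 53 after cyclic loess and 42 after median centring, where 5235 and 3126 of 11026 tested genes were higher. The median log2 difference was 0.12 in the large subunit, a 1.09-fold difference, and 0.084 in the small subunit, a 1.06-fold difference. On treated replicates 1 and 2 these medians were 0.094 and 0.18 in the large and 0.063 and 0.091 in the small subunit. The median gap between the control replicates (2 minus 1) was 0.046 in the large and 0.088 in the small subunit. Over all tested genes that gap was -0.011. In the small subunit the control gap was thus as large as the treated-minus-control median. In the large subunit 29 of 35 genes were higher on average, and in the small subunit 17 of 22. Both treated-minus-control medians stayed above 0 under other scalings but moved with them. The large subunit median was 0.073 after median centring, 0.077 after quantile normalization and 0.19 after cyclic loess. For the small subunit these were 0.038, 0.051 and 0.14. The direction of 18 members with small differences turned under at least 1 alternative that used all arrays.

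No member passed the test. With limma, 0 of 57 members had an adjusted p under 0.05 (Benjamini-Hochberg over all genes), as did 0% of all tested genes, and adjusted p ran from 0.44 to 0.997 over the members. At an unadjusted p under 0.05, 1 member was higher (background 1.49% of genes) and 0 were lower (background 8.93%). The count of higher members was 13 with an intensity trend in the fit (background 2.53%), 6 after cyclic loess (background 4.37%) and 0 after median centring (background 0.726%), again with 0 past the adjusted threshold in each. An ordinary two-sample test likewise called 0, with 1 higher at an unadjusted p under 0.05 (background 2.24%). Both treated arrays lay above both controls for 14 large subunit and 7 small subunit genes, or 21 of 57 members, against 14.7% of tested genes. They lay below both controls for 2 members, RPL23 and RPL37A, against 29.2% of tested genes. For 25 of 57 members the gap between the control replicates was larger than the treated-minus-control difference, as it was for 4616 of 11026 tested genes. These members were 13 of 35 in the large and 12 of 22 in the small subunit. The 95% interval of the difference lay within 1.5-fold either way for 54 of 57 members, the exceptions being RPL22, RPL29 and RPL7, whose upper bounds were 0.71, 0.61 and 0.61.

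Without VS-5584 replicate 1, 5 members passed as higher (background 2.29%) and 1 as lower (background 21.6%), with the lone treated array assumed to vary like the controls. RPL7, RPLP2, RPL26, RPL34 and RPL7A were the higher ones, by 0.44, 0.39, 0.40, 0.37 and 0.39. RPL10 was the lower one, with a difference of -0.42. Leaving out VS-5584 replicate 2, control replicate 1 or control replicate 2 gave no call among the members.

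**Figure D1:**
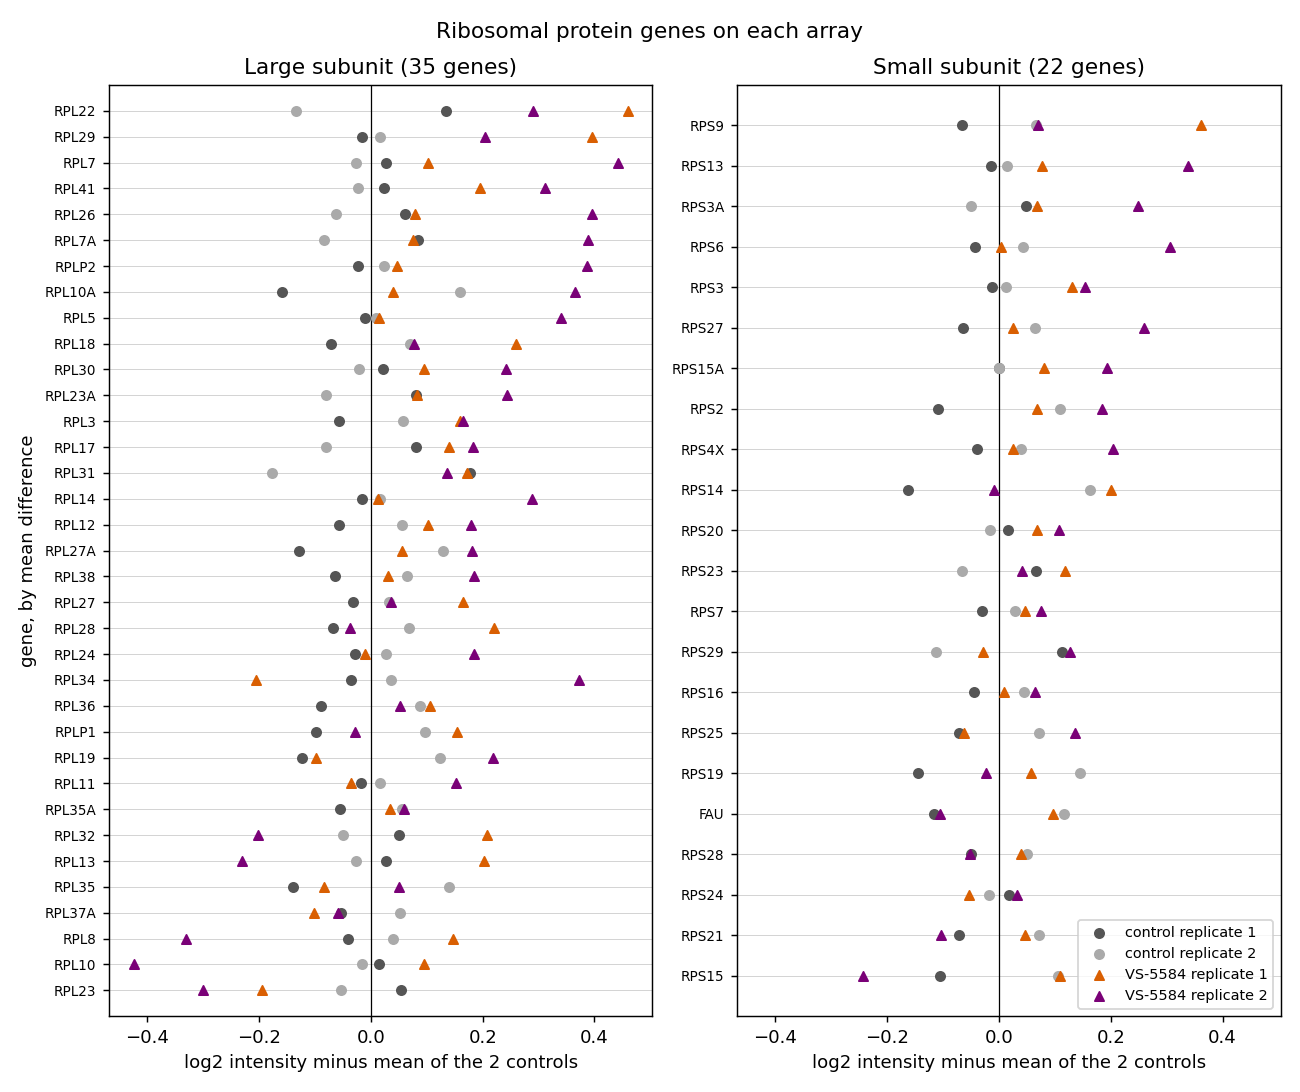
Log2 intensity of each ribosomal protein gene on each of the 4 arrays minus the mean of its 2 control arrays, with genes ordered by their mean difference (large subunit left, small subunit right; circles control, triangles VS-5584). RPL22, RPL29, RPL7 and RPL41 lead the large subunit, most triangles lie right of 0, and the 2 treated arrays lie far apart for RPL34, RPL10 and RPL8.

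RPL22 had the largest difference of any member. It encodes an RNA-binding protein at the surface of the large subunit near the exit tunnel, and the gene is often lost in T-cell leukaemia. Its values were 9.68 and 9.41 in control and 10.01 and 9.84 in treated cells. The groups did not overlap, and the difference was 0.37 ± 0.15 (SE; 95% interval 0.043 to 0.71, limma adjusted p = 0.44), a 1.3-fold difference. The control replicates themselves differed by -0.27. RPL29, which also binds heparin at the cell surface, stood at 8.64 and 8.67 in control and 9.05 and 8.86 in treated cells. Replicate 1 was the higher treated array and the groups did not overlap, with a difference of 0.30 ± 0.14 (SE, limma adjusted p = 0.481). RPL41, the shortest ribosomal protein, a small basic peptide, stood at 11.95 and 11.90 in control and 12.12 and 12.24 in treated cells. Its groups did not overlap either, and the difference was 0.25 ± 0.13 (SE, limma adjusted p = 0.535). For both RPL29 and RPL41 a dimmer probe set was lower on average, as given below.

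RPL7 stood at 11.47 and 11.41 in control and 11.54 and 11.88 in treated cells, so that replicate 2 carried most of its difference of 0.27 ± 0.15 (SE, limma adjusted p = 0.554). RPL7A, like many members a host of small nucleolar RNAs in its introns, stood at 11.54 and 11.37 in control and 11.53 and 11.84 in treated cells. Its replicate 1 lay within the control range, and the difference was 0.23 ± 0.15 (SE). RPL23, one of the ribosomal proteins that can bind the p53 regulator MDM2, was the member with the largest decrease. Its values were 7.26 and 7.16 in control and 7.01 and 6.91 in treated cells, with no overlap and a difference of -0.25 ± 0.13 (SE, limma adjusted p = 0.547). Its signal was among the dimmest of the members, at a mean of 7.09 where the members ran from 6.84 to 12.58. RPL37A, the other gene below both controls on both treated arrays, differed by -0.081 ± 0.13 (SE).

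The stalk proteins recruit translation factors to the large subunit. RPLP2 stood at 11.37 and 11.42 in control and 11.44 and 11.78 in treated cells, with no overlap and a difference of 0.22 ± 0.15 (SE). Its partner RPLP1 stood at 11.10 and 11.29 in control and 11.35 and 11.17 in treated cells, where replicate 2 lay between the controls and the difference was 0.063 ± 0.14 (SE). RPL12, at the base of the stalk, stood at 11.71 and 11.82 in control and 11.87 and 11.95 in treated cells, just without overlap, with 0.14 ± 0.13 (SE). RPL5 and RPL11 carry the 5S rRNA into the large subunit and, when left unassembled, bind MDM2 and thereby stabilise p53. RPL5 stood at 11.89 and 11.91 in control and 11.91 and 12.24 in treated cells. Replicate 1 exceeded the controls by less than the rounding shows, replicate 2 was clearly higher, and the difference was 0.18 ± 0.15 (SE). RPL11 stood at 11.50 and 11.54 in control and 11.49 and 11.67 in treated cells, with overlap and a difference of 0.059 (interval -0.25 to 0.36). MDM4, a relative of MDM2 that also restrains p53, stood at 8.75 and 8.71 in control and 8.98 and 8.96 in treated cells, with no overlap and 0.24 ± 0.13 (SE). MDM2 and the p53 target CDKN1A differed by 0.0020 and 0.015. The mean of CDKN1A, 5.64, lay close to the lowest of all tested genes, 5.61, so its difference says little about p53.

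Among proteins near the peptidyl transferase centre, where peptide bonds form, and the tRNA sites, the members differed in direction. RPL3 stood at 11.02 and 11.13 in control and 11.24 and 11.24 in treated cells, with the treated arrays close together above both controls and a difference of 0.16 ± 0.13 (SE). RPL10A, of the stalk through which used tRNAs leave, stood at 10.37 and 10.69 in control and 10.57 and 10.90 in treated cells. Its control replicates were as far apart as its treated ones, and the difference was 0.20 ± 0.17 (SE). RPL10, which joins late in maturation and is mutated in T-cell leukaemia, stood at 8.54 and 8.51 in control and 8.62 and 8.10 in treated cells. RPL8 stood at 10.28 and 10.36 in control and 10.47 and 9.99 in treated cells. In both, replicate 1 was the highest of the 4 arrays and replicate 2 the lowest, and the differences were -0.16 ± 0.18 and -0.092 ± 0.17 (SE).

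Around the tunnel through which the new protein leaves, 7 of 8 members were higher on average, with a median of 0.16. Besides RPL22, RPL26 stood at 10.94 and 10.82 in control and 10.96 and 11.27 in treated cells, just without overlap on replicate 1, with a difference of 0.24 ± 0.15 (SE). RPL17 and RPL23A also lay above both controls on both treated arrays and differed by 0.16 and 0.16. RPL31, RPL38 and RPL19 overlapped with control and differed by 0.15, 0.11 and 0.060. RPL35, which docks the signal recognition particle, was the exception at -0.017 (interval -0.35 to 0.31).

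In the small subunit the medians were 0.080 for proteins of the decoding site and mRNA channel, 0.096 for those of the platform and mRNA exit, and 0.037 for those of the head, over 5, 5 and 6 genes. No member differed by more than 0.22. The largest difference was that of RPS9, which helps keep decoding accurate, at 10.07 and 10.20 in control and 10.50 and 10.20 in treated cells. Replicate 1 was well above the controls and replicate 2 level with control replicate 2, so the difference of 0.22 ± 0.15 (SE, limma adjusted p = 0.619) rested mainly on 1 array. RPS13, near the interface with the large subunit, stood at 11.94 and 11.96 in control and 12.03 and 12.29 in treated cells, with no overlap, replicate 2 higher and a difference of 0.21 ± 0.14 (SE). RPS3, at the mRNA entry channel and also a DNA repair protein, stood at 12.31 and 12.34 in control and 12.45 and 12.48 in treated cells. Its replicates agreed within each group, and the difference was 0.14 ± 0.13 (SE; limma adjusted p = 0.704, interval -0.15 to 0.43). RPS3A, an early-assembling protein at the mRNA exit, stood at 12.17 and 12.07 in control and 12.19 and 12.37 in treated cells, just without overlap, with 0.16 ± 0.14 (SE).

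RPS6 is the ribosomal protein that S6 kinases phosphorylate downstream of mTOR. Its mRNA stood at 11.82 and 11.90 in control and 11.86 and 12.17 in treated cells, with replicate 1 between the controls and replicate 2 above them. The difference was 0.15 ± 0.15 (SE; limma adjusted p = 0.721, interval -0.18 to 0.49). RPS14, lost in myelodysplasia with a deletion on chromosome 5, stood at 9.64 and 9.96 in control and 10.003 and 9.79 in treated cells. Replicate 1 lay just above both controls, replicate 2 between them, and the difference was 0.096 (interval -0.26 to 0.45). RPS19, the gene most often mutated in Diamond-Blackfan anaemia, stood at 10.56 and 10.85 in control and 10.76 and 10.68 in treated cells, with both treated arrays inside the control range and a difference of 0.018 (interval -0.31 to 0.35). FAU encodes RPS30 fused to a ubiquitin-like protein and stood at 9.01 and 9.25 in control and 9.23 and 9.02 in treated cells, also inside the control range, with -0.0039 (interval -0.33 to 0.33). RPS15 was the lowest of the small subunit at -0.067 ± 0.16 (SE), with 9.57 and 9.78 in control and 9.78 and 9.43 in treated cells.

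Of the remaining small subunit members, RPS15A, RPS20 and RPS7 lay above both controls on both treated arrays and differed by 0.14, 0.088 and 0.061. RPS27, RPS2, RPS4X and RPS23 overlapped with control and differed by 0.14, 0.13, 0.11 and 0.080. RPS29, RPS16 and RPS25, of the head of the subunit, differed by 0.049, 0.037 and 0.036, and RPS21, RPS24 and RPS28 by -0.029, -0.011 and -0.0065. In the large subunit, RPL30, RPL18 and RPL27 lay above both controls on both treated arrays, with differences of 0.17, 0.17 and 0.10. RPL14, RPL27A, RPL28, RPL24, RPL36 and RPL35A overlapped with control and differed by 0.15, 0.12, 0.092, 0.087, 0.079 and 0.047. RPL13 and RPL32, both higher than the controls on replicate 1 and lower on replicate 2, averaged -0.014 and 0.0031.

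Which members were higher differed between the treated arrays. Set against the control of the same replicate number, 49 members were higher in pair 1 and 41 in pair 2, and 35 in both. Across the members, the differences of the 2 pairs, which share no array, correlated at r = -0.26, against 0.48 across all tested genes. This r describes genes measured together on the same arrays, so no p is given. RPL34 stood at 11.11 and 11.18 in control and 10.94 and 11.52 in treated cells, the lowest of its 4 values being treated replicate 1 and the highest treated replicate 2, a gap of 0.58. For RPL10, RPL8, RPL13, RPL32 and RPS15 that gap ran the other way, at -0.52, -0.48, -0.43, -0.41 and -0.35. The treated replicates were further apart than the control replicates in 36 of 57 members. All tested genes together also spread more between treated replicates (SD of the difference 0.249) than between control replicates (0.167). Chosen after their values were seen, the 8 members on chromosome 19 were lower on treated replicate 2 than on replicate 1 in 7 cases. That held for 14 of the other 49 members and for 7962 of 11026 tested genes. Whether the chromosome had a part in this was not tested.

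**Figure D2:**
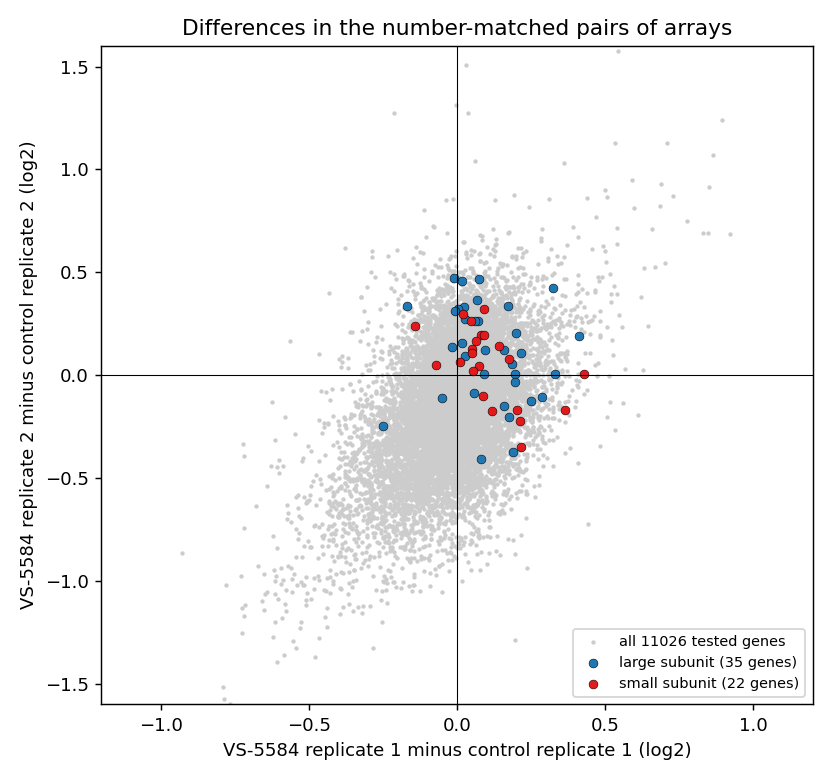
Log2 difference of VS-5584 replicate 1 from control replicate 1 (x axis) and of VS-5584 replicate 2 from control replicate 2 (y axis) for each gene, with grey points for all 11026 tested genes, blue for the large and red for the small subunit. The grey cloud runs along the rising diagonal (r = 0.48), while the members do not (r = -0.26), and 35 of 57 members lie right of and above 0.

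Most members were bright, and on VS-5584 replicate 2 the differences of all genes varied with brightness. Of the members, 44 were among the brightest decile of tested genes. The other 1059 genes of that decile had a median of -0.10, with -0.049 on treated replicate 1 and -0.17 on replicate 2. The 44 bright members had 0.12, with 0.068 and 0.18, and 38 of them were higher. The 13 dimmer members had 0.049, with 0.11 and 0.041, and 8 were higher. On replicate 2 the median of all tested genes was lowest in the seventh decile, at -0.32, and -0.16 in the brightest. The part of array brightness in the members' differences was not tested beyond the other scalings given above.

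**Figure D3:**
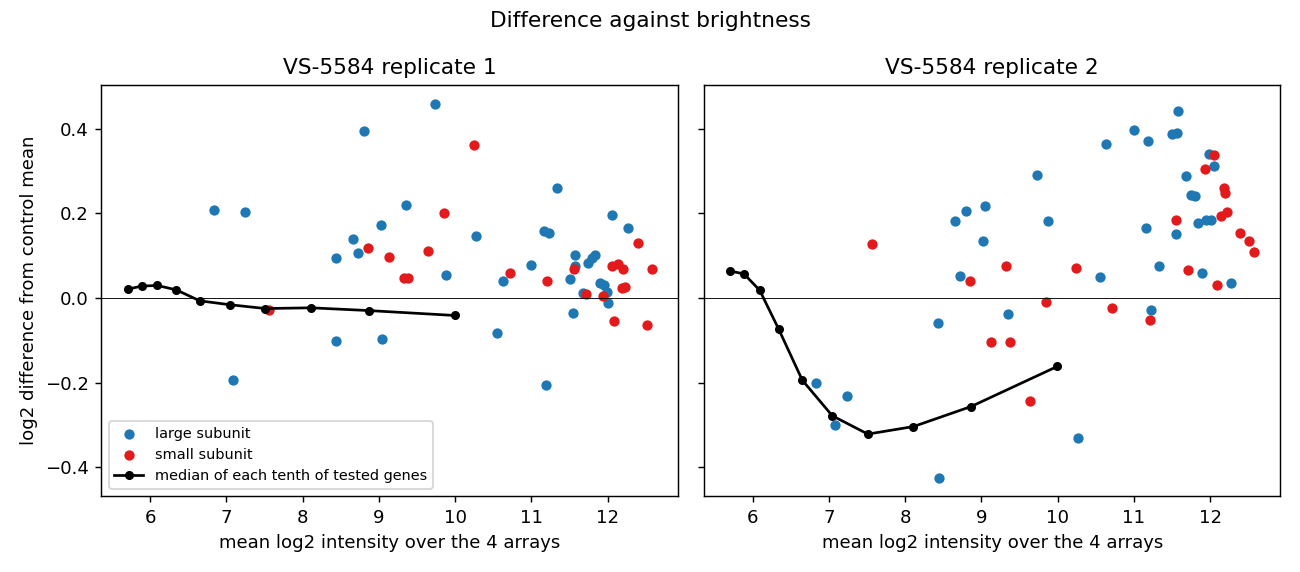
Log2 difference from the control mean against mean log2 intensity for each ribosomal protein gene on VS-5584 replicate 1 (left) and replicate 2 (right), with the median of each decile of all tested genes as a black line. The line stays near 0 on replicate 1 and dips to -0.32 on replicate 2, where the brightest members lie mostly above 0.

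Probe sets of the same gene did not always agree. The members had 84 single-gene probe sets, and 17 members had more than 1. All probe sets were higher on average in 11 of these, and 6 had probe sets of both directions. All 3 probe sets of RPL7 were higher without overlap, by 0.24 to 0.28, as were all 4 of RPL12, by 0.14 to 0.34. The 5 of RPS3A were higher by 0.16 to 0.31. RPL41 had 2 bright probe sets with identical values and a dimmer one at 8.08 and 8.20 in control and 8.04 and 7.63 in treated cells, which was lower without overlap, with a difference of -0.30. The dimmer probe set of RPL27A, at 6.32 and 6.55 in control and 6.05 and 5.75 in treated cells, was also lower without overlap, with a difference of -0.54, and that of RPL29 differed by -0.066. The direction of RPL41, RPL27A and RPL29 thus depended on the probe set. Positions of the probe sets in the genome were not checked, so which lie at the gene and which at a pseudogene is not known. All 57 members have named pseudogenes in the RefSeq table, 13 in the median gene and up to 95 (RPL23A), and probes that match both report on both.

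A further 11 cytosolic ribosomal protein genes were covered only by probe sets annotated to several genes, mostly with their pseudogenes, and were not tested. The median probe set was higher for 10 of them and lower for 1, RPS26. The 4 probe sets of RPL9 lay between 11.54 and 11.65 on control replicate 1, and between 11.58 and 11.68 on replicate 2. On the treated arrays they lay between 11.54 and 11.64 and between 12.02 and 12.11, so that only replicate 2 was above control. RPL21, RPL36A, RPL39 and RPS12 had median differences of 0.24, 0.30, 0.21 and 0.29, in each case larger on replicate 2 (0.45, 0.53, 0.35 and 0.53) than on replicate 1 (0.028, 0.13, 0.078 and 0.039).

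RPS26, which sits at the mRNA exit of the small subunit, went the other way. All 6 of its probe sets were lower on average, with differences of -0.38 to -0.22, and 5 were below both controls on both treated arrays. Its brightest stood at 9.81 and 10.06 in control and 9.55 and 9.56 in treated cells. Here replicate 1 had the larger difference (median -0.35 against -0.20). These probe sets are shared with a pseudogene or an unnamed locus, and in part with PDPK1, so they are not independent measurements.

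Some probe sets pair a member with a small nucleolar RNA from its introns. The one annotated to RPL7A with SNORD36A and SNORD36C stood at 8.14 and 8.18 in control and 7.72 and 7.44 in treated cells. Its difference was -0.58, whereas the probe set annotated to RPL7A alone, a gene with 80 named pseudogenes, was higher by 0.23. That of RPL7A with SNORD24 differed by -0.30, and that of RPS3A with SNORD73A by -0.25. For RPL10, 3 probe sets annotated with SNORA70 were lower without overlap, at -0.39 for the lowest, and the brightest one was higher without overlap, at 0.21. Members known to host such RNAs (18 genes) had a median of 0.15, with 11 above both controls on both treated arrays, against 14.7% of all tested genes. The other 39 members had 0.083, with 10. The 10 members listed here as mutated in Diamond-Blackfan anaemia, a list that may not be complete, had 0.054. These differences between groups of members were not tested.

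Paralogs of ribosomal proteins, near copies with tissue-limited or accessory roles, were mixed. Of 7 tested paralogs 2 were higher (background 37.3%), with a median of -0.060, near the -0.064 of all tested genes. RPL26L1, a near copy of RPL26, stood at 9.36 and 9.43 in control and 9.18 and 8.98 in treated cells, with no overlap and a difference of -0.32 ± 0.14 (SE, limma adjusted p = 0.469). RPL39L, otherwise known from testis and tumours, stood at 7.74 and 7.57 in control and 7.53 and 6.93 in treated cells, also lower without overlap, with -0.43 ± 0.19 (SE). RPL3L, the muscle form of RPL3, stood at 6.11 and 6.11 in control and 6.27 and 6.39 in treated cells and differed by 0.22 ± 0.13 (SE). RPL10L, the testis form of RPL10, stood at 5.92 and 5.80 in control and 5.90 and 6.08 in treated cells and differed by 0.13 ± 0.14 (SE). These were the only paralogs higher on average, and RPL3L and RPL10L were dim, with means of 6.22 and 5.92. In brightness deciles 1 to 3 the medians of all tested genes were also above 0, at 0.049, 0.041 and 0.026. RPL36AL stood at 10.79 and 10.91 in control and 10.68 and 10.88 in treated cells, with a difference of -0.072. RPL7L1, which acts in ribosome assembly, stood at 6.86 and 6.82 in control and 6.79 and 6.76 in treated cells, with -0.060. RPS27L, a p53 target, stood at 6.32 and 6.27 in control and 6.22 and 6.32 in treated cells, with -0.024. RPL22L1, the paralog of RPL22, lay below the filter on dim genes.

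The other mRNAs known to begin with a TOP tract, mostly translation factors, had a median of 0.13 over 17 tested genes, 12 of them higher (background 37.3%). With limma 0 passed and 2 were higher at an unadjusted p under 0.05 (background 1.49%). Without VS-5584 replicate 1 EIF3E alone passed (background 2.29% higher). EIF3E, a subunit of the initiation factor that brings the small subunit to mRNA, stood at 10.51 and 10.34 in control and 10.65 and 11.01 in treated cells, with no overlap and 0.40 ± 0.16 (SE, limma adjusted p = 0.443). EIF3L, another subunit, stood at 10.34 and 10.36 in control and 10.69 and 10.63 in treated cells, with no overlap and 0.31 ± 0.13 (SE). The elongation factors EEF1A1 and EEF2 differed by 0.13 and 0.21. Mitochondrial ribosomal proteins, whose mRNAs feed the organelle's own ribosome, lay on the other side. Their median was -0.23 over 73 genes, 65 of them lower, against 62.7% of all tested genes. With limma 0 passed and 19 were lower at an unadjusted p under 0.05 (background 8.93%). Without VS-5584 replicate 1, 26 passed as lower (background 21.6%) and 1 as higher (background 2.29%). MRPL47, of the large mitochondrial subunit, stood at 9.28 and 9.35 in control and 9.02 and 8.70 in treated cells, with no overlap and -0.45 ± 0.15 (SE). MRPS2, of the small one, stood at 7.53 and 7.72 in control and 7.36 and 6.84 in treated cells, with no overlap and -0.53 ± 0.18 (SE). The mean intensity of the mitochondrial genes ran from 5.76 to 10.26, and their median was -0.12 on treated replicate 1 and -0.31 on replicate 2. In brightness deciles 6 to 9 of all tested genes the medians were -0.030 to -0.016 and -0.32 to -0.26. The part of brightness in the mitochondrial difference was not tested. After cyclic loess the medians of the other TOP mRNAs and the mitochondrial ribosomal proteins were 0.16 and -0.11. No test of the difference between these groups and the members was made, since genes are not replicates.

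**Figure D4:**
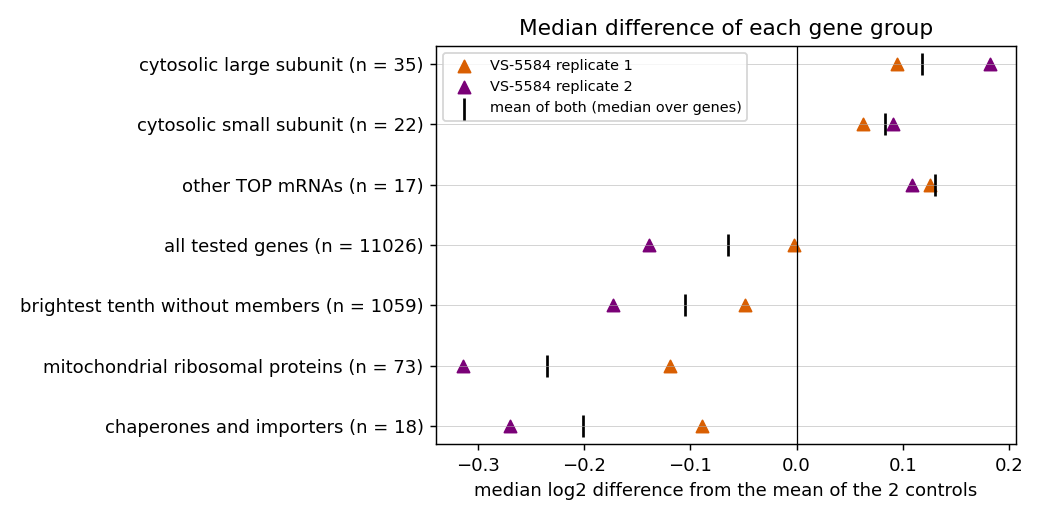
Median log2 difference from the control mean over the genes of each group, for VS-5584 replicate 1 (orange), replicate 2 (purple) and their mean (black bar), with the number of tested genes beside each group. Both cytosolic subunits and the other TOP mRNAs lie right of 0 on both arrays, and the mitochondrial ribosomal proteins and the chaperones and importers of ribosomal proteins lie left of 0 on both.

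Chaperones and importers that carry new ribosomal proteins to the nucleus and into pre-ribosomes were lower on average in 17 of 18 cases (background 62.7%), with a median of -0.20. With limma 0 passed and 4 were lower at an unadjusted p under 0.05 (background 8.93%). TSR2, the chaperone of RPS26, stood at 7.06 and 7.17 in control and 6.87 and 6.57 in treated cells, with no overlap and -0.39 ± 0.15 (SE, limma adjusted p = 0.426). RPF2, which brings the RPL5 and RPL11 particle to the large subunit, stood at 10.02 and 9.87 in control and 9.70 and 9.51 in treated cells, with no overlap and -0.35 ± 0.14 (SE). In the list of mTOR complex 1 components and effectors that act on the translation machinery, 3 of 12 tested genes were higher (background 37.3%), with a median of -0.16. PDCD4, an inhibitor of translation initiation that S6 kinase marks for degradation, stood at 6.94 and 7.01 in control and 7.44 and 7.87 in treated cells, with no overlap and 0.69 ± 0.16 (SE, limma adjusted p = 0.276). The S6 kinase gene RPS6KB1 stood at 8.44 and 8.72 in control and 8.15 and 8.12 in treated cells and differed by -0.45 ± 0.14 (SE), and LARP1, the protein that binds TOP tracts, by -0.13 ± 0.15.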

How the data were processed

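RNA of 4 cultures was measured on one-colour arrays. The deposited table holds 1 linear intensity per probe set and array. The submitters' processing notes name RMA, and further steps are not given in the sources used here, so whether a constant was added, which would shrink the differences of dim genes, is not known. Analysis used log2 of the intensity with no further normalization. Probe sets were named through the platform annotation, with symbols updated through gene IDs of the RefSeq table (GRCh38.p14). Of 28869 probe sets 19310 carry 1 gene. The comparison used limma 3.58.1 (R 4.3.3, a linear model with eBayes) over all 11026 genes above the filter, two-sided, with Benjamini-Hochberg adjustment at 0.05. Full values are given for the 5 members of each subunit with the smallest unadjusted p, the extremes, members with a fixed role and the first 2 of each other list; others are named with their difference. The members and lists were chosen with earlier results of these data known, and no list was tested. The fit was tested on simulated data. Alternatives were a block for the replicate number, cyclic loess, median centring, quantile normalization, 2 other filters, an intensity trend, an ordinary test, averaged probe sets, 16 subtracted from each intensity, a threshold of 0.1 and leaving out each array. Figures were drawn with matplotlib 3.10.9.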

Additional observations from a re-analysis of the deposited data

How the results depend on the processing

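With 2 arrays a group, differences between members of the size seen here could not be resolved, and no probe set could be set against its background. The count of 0 members past the threshold held under every alternative that used all 4 arrays. The replicate numbers are shared between the groups, and deviations of same-numbered arrays from their group means correlated at 0.16, but the labels do not say that a number marks a pair. With the replicate block, 432 of all tested genes passed, 0 of the members and 1 mitochondrial ribosomal protein gene (MRPS2), and with an intensity trend 80 of all tested genes. Members higher at an unadjusted p under 0.05 numbered 13 with an intensity trend (background 2.53%), 6 after cyclic loess (background 4.37%) and 0 after median centring (background 0.726%). Median centring left 4 small subunit genes above both controls. The large and small subunit medians were 0.19 and 0.14 after cyclic loess, 0.077 and 0.051 after quantile normalization and 0.073 and 0.038 after median centring. The median of the other TOP mRNAs was 0.085 after median centring, 0.16 after cyclic loess, 0.074 after quantile normalization, 0.093 with no filter and 0.055 with probe sets averaged. For mitochondrial ribosomal proteins it was -0.11 after cyclic loess and -0.13 after quantile normalization, and 4, 21 and 21 of them were higher after median centring, cyclic loess and quantile normalization. Leaving out 1 array at a time gave, for the large subunit, a median of 0.059 to 0.18 and 16 to 25 genes above the controls without overlap. It gave 9 to 16 such genes and a median of 0.053 to 0.11 for the small subunit. The difference between the 2 medians was 0.0062 to 0.091. With 1 array fewer, lack of overlap is reached more easily by chance. These counts thus cannot be set against the 14 and 7 from all 4 arrays, and no share of all tested genes was taken. For the other TOP mRNAs the median was 0.089 to 0.13, with 0 to 1 past the threshold. For mitochondrial ribosomal proteins it was -0.31 to -0.12, with 0 to 27 past the threshold and 5 to 19 higher.

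Among members, none of which passed the test, the direction turned under median centring in RPL32 (-0.043), RPS16 (-0.0084), RPS25 (-0.0094) and RPS19 (-0.028). It turned under cyclic loess in RPL37A (0.062), RPL35 (0.061), RPL13 (0.11), RPS15 (0.044), RPS21 (0.091), RPS28 (0.044) and FAU (0.12). It turned under quantile normalization in RPL27 (-0.060), RPL24 (-0.033), RPL37A (0.054), RPL11 (-0.047), RPL35A (-0.066), RPL35 (0.018), RPL13 (0.095), RPS4X (-0.0043), RPS15 (0.049), RPS16 (-0.074), RPS25 (-0.030), RPS21 (0.087), RPS28 (0.0061) and FAU (0.12). Averaging probe sets turned RPL27A (-0.21), RPS7 (-0.0088), RPS15 (0.053) and RPS28 (0.0018). With 1 array left out it turned in these members, given with their lowest and highest value: RPL27A (-0.011 to 0.25), RPL36 (-0.0091 to 0.17), RPLP1 (-0.035 to 0.16), RPL19 (-0.098 to 0.22), RPL35A (-0.0092 to 0.10), RPL13 (-0.23 to 0.20), RPS14 (-0.066 to 0.26), RPS16 (-0.0077 to 0.082), RPS25 (-0.063 to 0.14), RPS19 (-0.13 to 0.16), RPS24 (-0.054 to 0.031), RPL31 (-0.024 to 0.33), RPL35 (-0.16 to 0.12), RPL32 (-0.20 to 0.21), RPS15 (-0.24 to 0.11), RPS29 (-0.065 to 0.16), RPS21 (-0.10 to 0.047), RPS28 (-0.056 to 0.043), FAU (-0.12 to 0.11), RPL28 (-0.037 to 0.22), RPL10 (-0.42 to 0.095), RPL24 (-0.011 to 0.19), RPL8 (-0.33 to 0.15), RPL34 (-0.21 to 0.37) and RPL11 (-0.035 to 0.15). The direction held under all alternatives in 28 members, 27 of them higher. The causes were not tested.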
